A study of Bos taurus with 9 samples.

Results

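Prostaglandins are lipid signals made from arachidonic acid, and the enzymes that make and break them down were followed here in bovine endometrial cells exposed to lysophosphatidic acid (LPA) with or without interferon tau (IFNt). The 10 genes are the cyclooxygenases PTGS1 and PTGS2, the synthases PTGES, PTGES3, PTGDS and PTGIS, the aldo-keto reductases AKR1B1, AKR1C3 and AKR1C4, and the dehydrogenase HPGD. They were taken by symbol. Every probe set (the group of probes that reads 1 transcript) whose annotation gave 1 of these symbols alone was a member, which gave 19 of the 24128 probe sets on the array, for 10 of 9155 named genes. AKR1C4 had 6 probe sets, PTGS2 had 3, PTGS1 and HPGD had 2 each, and the other 6 genes had 1. Probe sets of 1 gene are called a, b and so on, from the brightest.

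Cyclooxygenases turn arachidonic acid into the short-lived prostaglandin H, and terminal synthases turn that into prostaglandin E, F, D or prostacyclin. In ruminant endometrium, prostaglandin F released towards the end of the cycle brings about regression of the corpus luteum, and prostaglandin E is counted among the signals that support it. Interferon tau is the interferon that the ruminant conceptus secretes as its pregnancy signal, and LPA is a signalling phospholipid that acts on G protein-coupled receptors.

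The cells came from Holstein/Polish Black and White cows slaughtered at days 2 to 5 of the cycle. From their endometrium, stroma and epithelium were co-cultured at 3 to 1 and exposed for 6 h to phosphate-buffered saline (Control), to oleoyl-LPA at 1e-06 M (LPA), or to that LPA with 1000 antiviral units of interferon tau (LPA+IFNt). Each group had 3 arrays, and each array was hybridised with RNA of a pool of 3 cows. With 9 cows in the study the pools share animals, so p-values measure the spread between these pools only. Cells exposed to interferon tau alone were not analysed here, so an effect of interferon tau without LPA is not given.

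Values are the deposited log2 expression values, on which a difference of 1 is a doubling. Array medians lay between 4.29 and 4.37. The interferon response genes ISG15, MX1 and MX2 were read first as a check of the labels. ISG15 lay at 7.89 to 7.97 in Control, 8.35 to 8.84 with LPA and 14.42 to 14.63 with LPA+IFNt, and MX1 at 7.42 to 7.54, 7.62 to 7.77 and 12.58 to 13.04. MX2 lay at 2.11 to 2.19 on the arrays without interferon tau and at 9.56 to 9.79 with it. Of 12 interferon response genes measured, 10 were higher with LPA+IFNt than in control and than with LPA, and 0 passed with LPA alone. The smallest p-values with LPA against control were those of RSAD2 (log2 difference 1.18, adjusted p by limma 0.0566) and ISG15 (0.71, adjusted p = 0.105). In Control, all 15 measured epithelial markers and all 15 measured stromal markers lay above the trp level, the highest mean (2.67) of 3 control probe sets for a bacterial trp transcript. So did 7 of 15 leukocyte, 7 of 9 smooth muscle and pericyte, 1 of 8 red blood cell and 0 of 11 endothelial markers. Of all 9155 named genes 7116 did too, so these counts alone do not show a cell type. Among defining epithelial markers KRT18, KRT19, CDH1 and EPCAM averaged 11.86 to 14.05 in Control, but KRT8 only 3.33. The stromal VIM, COL1A1, COL1A2 and DCN averaged 10.36 to 14.68. PECAM1, the defining endothelial marker, was at 2.29 in Control.

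Of the 19 member probe sets, 13 lay above the trp level on average and also above the highest trp value of the same array on each of the 9 arrays, beside 65.4% of all tested probe sets above it on average. They cover 9 of the 10 genes. PTGIS, the prostacyclin synthase, lay below on all 9 arrays, at 2.42 to 2.54, so its values say nothing about a change. AKR1C3 was hardly above, at 2.64 to 2.89, and its values followed the mean of the trp probe sets over the 9 arrays (r = 0.87, a description with no test). The remaining probe sets below the level were 1 of PTGS2, 1 of HPGD and 3 of AKR1C4, with r of 0.788 to 0.894 against the trp mean. The values of these dim probe sets were high on the arrays where the trp values were high.

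**Figure D1:**
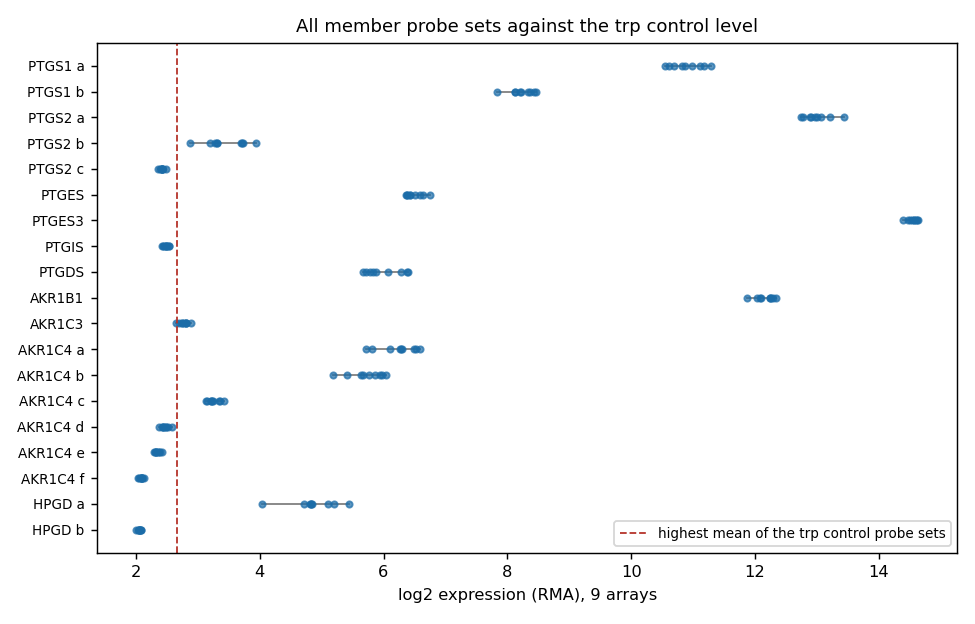
Log2 expression (horizontal axis) of each of the 19 member probe sets on the 9 arrays, with 1 point per array, and the highest mean of the trp control probe sets as a dashed line. PTGIS, 1 probe set each of PTGS2 and HPGD and 3 of AKR1C4 lie left of the line, and AKR1C3 lies close to it.

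The first question was how LPA moved these enzymes. With limma across all probe sets and Benjamini-Hochberg adjustment, 0 of 19 member probe sets passed an adjusted p of 0.05 in LPA against control, where 0.0708% of all 24016 tested probe sets did. With the block, also by limma, it was 0 of 19 beside 0.0458%. At an unadjusted p under 0.05 the count was also 0 of 19 in limma without the block, beside 8.3% of all. It was 2 of 19 in the fit that takes the replicate number as a block, where 12.9% of all probe sets reached it. These 2 were the brightest probe sets of PTGS2 and AKR1C4. None of the 19 had LPA arrays that all lay apart from the control arrays, against 10% of all probe sets. The median log2 difference over the 10 genes was 0.002, beside -0.003 over all 9155 named genes.

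The other comparisons added interferon tau. LPA+IFNt against control gave 0 of 19 by either fit, beside 5.34% of all probe sets without the block and 8.68% with it. At an unadjusted p under 0.05 it had 1 of 19 by limma without the block, beside 16.7%, and 2 of 19 had groups apart, both lower, beside 23.1% in either direction. LPA+IFNt against LPA gave 0 of 19 beside 6.54%, and with the block 2 of 19 beside 9.66%, both in the lower direction, where the share of all probe sets was 6.28%. These were PTGS2 and PTGDS. At an unadjusted p under 0.05 it had 4 of 19 by limma without the block, beside 17.5%, and 3 of 19 had groups apart, beside 18.7% in either direction and 11.3% lower. limma's F test over the 3 groups called 0 of 19 beside 5.99% (3 at an unadjusted p under 0.05, beside 17.7%), and 1 of 19, PTGS2, with the block beside 9.48%. The block is printed beside the results because same-numbered pools of different groups deviated together. Pairs of groups that share arrays are not independent: the LPA arrays enter both comparisons with LPA, and the control arrays both comparisons with control. When each array was centred on the spike-in controls, every difference in LPA+IFNt against LPA moved up by 0.13 and every one against control by 0.11. The share of all calls that were higher then went from 39.1% to 73.2% and from 46.4% to 79.8%, respectively, and from 70.6% to 57.9% in LPA against control.

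PTGS2, the inducible cyclooxygenase, was bright on every array. Its leading probe set read 13.00, 12.88 and 13.07 in control pools 1, 2 and 3, 13.22, 12.97 and 13.44 in LPA pools 1, 2 and 3, and 12.78, 12.74 and 12.90 in LPA+IFNt pools 1, 2 and 3. In each numbered set the LPA pool was the highest and the LPA+IFNt pool the lowest. That order, higher with LPA and lower with LPA+IFNt than in control in all 3 sets, was found for 1 of 19 member probe sets and for 2.23% of all tested. Control and LPA arrays overlapped, while all 3 LPA+IFNt arrays lay below all 3 LPA arrays, as for 11.3% of all probe sets.

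In LPA+IFNt against LPA the log2 difference of PTGS2 was -0.40 (SE 0.11, 95% confidence interval -0.67 to -0.14), or 1.32-fold lower. It missed the threshold in limma without the block (adjusted p = 0.0949) and passed with it (adjusted p = 0.0198). In the blocked fit the call was lost without LPA replicate 1 (adjusted p = 0.0962), LPA+IFNt replicate 1 (0.0879) or LPA+IFNt replicate 3 (0.0694). The pairs differed by -0.44, -0.23 and -0.54, and 20.5% of all probe sets were lower in 3 of 3 pairs. Without the block, it also passed when LPA replicate 2 was left out (-0.52, adjusted p = 0.0152). In these bulk samples fewer cells of a type and less RNA per cell cannot be told apart. Stromal markers moved in the same comparison: 5 of 15 were lower and 0 higher in limma without the block (COL1A1, COL1A2, COL3A1, FBN1 and THY1), and 4 with it. Of all named genes, 3.75% were higher and 4.16% lower in that comparison, or 4.97% and 7.66% with the block. The summed level of the stromal markers, as linear signal, was 106300 to 108900 with LPA+IFNt against 123600 to 133600 with LPA and 118100 to 128600 in control. Among the smooth muscle markers ACTA2 was lower (-1.05, adjusted p = 0.00853), with summed levels of 2911 to 3251 against 3981 to 5114 with LPA and 3069 to 3737 in control. With the block 4 of 9 were lower. Among 15 leukocyte markers CD53 was called higher (adjusted p = 0.0336), and with the block CD14 was lower (-0.80, adjusted p = 0.0271, or 0.0758 without it). CD53 averaged 4.01 with LPA+IFNt, but 2.86 with LPA and 2.75 in Control, close to the trp level, so no size is given. The summed level of the leukocyte markers was 279 to 318 with LPA+IFNt against 334 to 422 with LPA and 296 to 348 in control. Of 8 red blood cell markers, GYPC was higher (0.94, adjusted p = 0.000776). The summed epithelial markers overlapped, at 55480 to 58470 against 54840 to 56040, with 1 of 15 lower (SPINT2, -0.45, adjusted p = 0.00457). With the block 2 epithelial markers were also higher, MUC1 (0.48, adjusted p = 0.0157, or 0.156 without it) and KRT18 (0.20, adjusted p = 0.0378, or 0.167 without it). Their part in the PTGS2 difference was not tested.

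Against control, PTGS2 differed by 0.22 with LPA (SE 0.11, 95% confidence interval -0.04 to 0.49, adjusted p = 0.696, or 0.239 with the block) and by -0.18 with LPA+IFNt (SE 0.11, adjusted p = 0.484, or 0.178 with the block). Neither passed by limma, although each had the same sign in 3 of 3 pairs, a count reached by 13% of all probe sets in the higher direction with LPA and by 20.9% in the lower direction with LPA+IFNt. With the block the 95% intervals left out 0, at 0.06 to 0.38 with LPA and -0.34 to -0.02 with LPA+IFNt. They are not adjusted for the number of probe sets. Such intervals left out 0 for 12.9% and 22.8% of all probe sets. PTGS2 probe set b read only 2.87 to 3.95 and ranged over 1.07 between arrays. It differed by -0.11 in LPA+IFNt against LPA (SE 0.28, adjusted p = 0.826), with 1 of 3 pairs lower, and so does not show the difference of the brighter probe set.

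**Figure D2:**
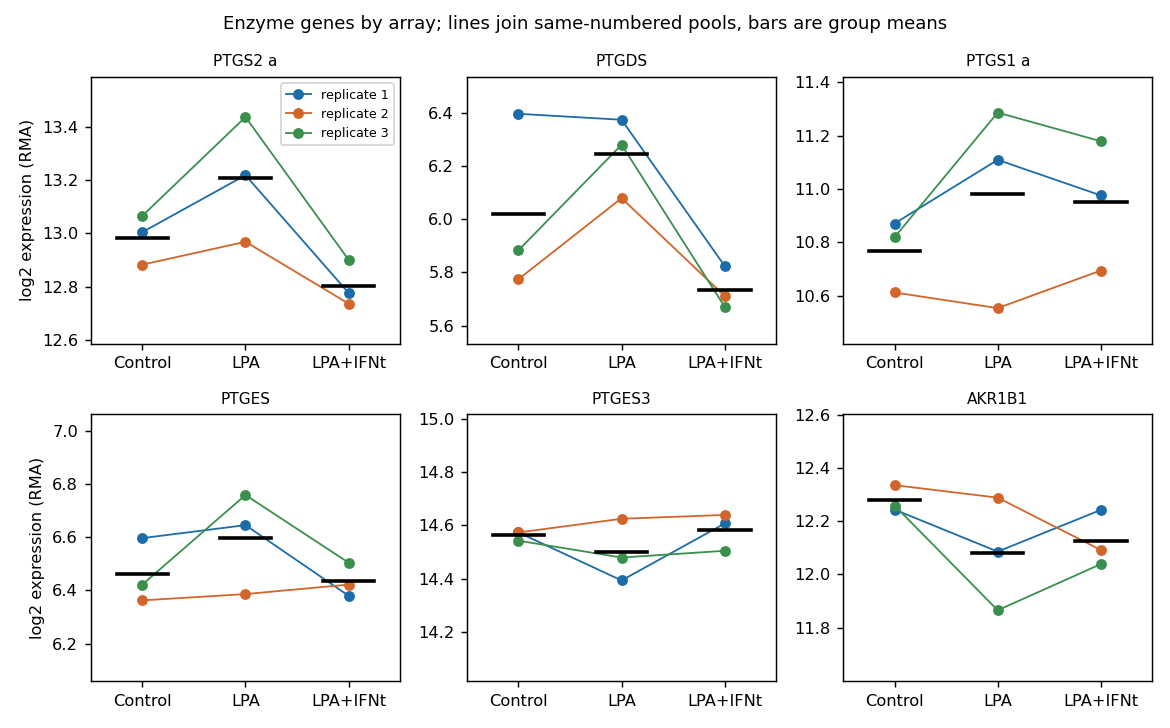
Log2 expression (vertical axes) of the leading probe sets of PTGS2, PTGDS, PTGS1, PTGES, PTGES3 and AKR1B1 in Control, LPA and LPA+IFNt, with 1 point per array, coloured lines joining pools of the same replicate number and black bars at group means. For PTGS2 all 3 lines peak at LPA and end lowest at LPA+IFNt, and for PTGS1 the line of replicate 2 runs below the others in every group.

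PTGS1, the constitutive cyclooxygenase, had a larger share of its variance between replicate numbers than between groups. Its leading probe set read 10.87, 10.61 and 10.82 in control pools 1, 2 and 3, 11.11, 10.55 and 11.29 with LPA, and 10.98, 10.69 and 11.18 with LPA+IFNt. Pool 2 was the lowest in every group. The replicate number took 70% of the variance of this probe set over the 9 arrays and the group 15.3%, and for the other PTGS1 probe set (b, 7.83 to 8.46) 63.4% and 4.48%. The moderated F test of the replicate number did not pass for PTGS1 (adjusted p = 0.234, unadjusted p = 0.00837), nor for any probe set on the array in limma, with 16.2% of all probe sets at an unadjusted p under 0.05. Group differences of the leading probe set were 0.22 with LPA (95% confidence interval -0.25 to 0.68), 0.18 with LPA+IFNt (-0.28 to 0.65) and -0.03 between them (-0.50 to 0.43), with adjusted p of 0.635 or more. Those intervals are without the block. With it, the interval with LPA ran from -0.03 to 0.46. A difference of up to about 0.7 with LPA is therefore within the unblocked interval only.

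Among the 13 probe sets above the trp level, 8 had a larger share of variance for the replicate number than for the group, beside 43.4% of all probe sets above that level. The median share of the members was 36.3% for the number and 25.6% for the group, beside 28.8% and 37.7% over all probe sets above it. Replicate number 2 was below the mean of all arrays for PTGS1 a and b, PTGS2 a and b, PTGES, PTGDS and AKR1C4 b, and above it for HPGD a, AKR1B1, PTGES3, AKR1C3 and AKR1C4 a and c.

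**Figure D3:**
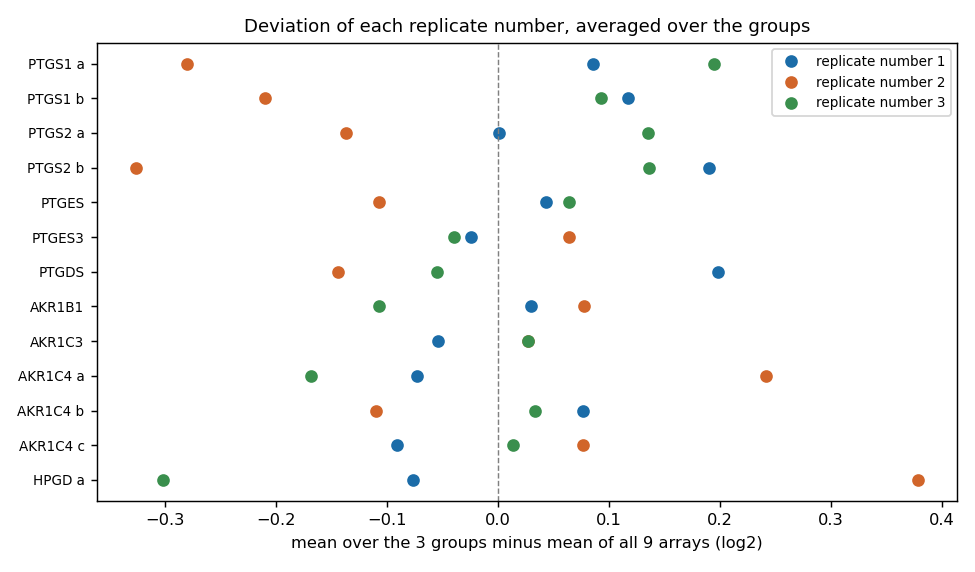
Mean over the 3 groups for each replicate number minus the mean of all 9 arrays (horizontal axis, log2) for the 13 member probe sets above the trp level. Replicate number 2 stands at -0.28 for the leading PTGS1 probe set and at 0.38 for HPGD, whose replicate number 3 stands at -0.30.

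The prostaglandin D synthase gene PTGDS encodes a lipocalin-type enzyme that also carries small lipids. Its probe set read 6.40, 5.77 and 5.88 in control pools 1, 2 and 3, 6.37, 6.08 and 6.28 with LPA, and 5.82, 5.71 and 5.67 with LPA+IFNt. All 3 LPA+IFNt arrays lay below all 3 LPA arrays, as for 11.3% of all probe sets. Control pool 1 stood 0.5 or more above the other control pools. In LPA+IFNt against LPA the difference was -0.51 (SE 0.16, 95% confidence interval -0.88 to -0.14), with pairs at -0.55, -0.37 and -0.61. It missed the threshold without the block (adjusted p = 0.127) and passed with it (adjusted p = 0.0414). The blocked call was kept only without control replicate 1 (adjusted p = 0.014). Without any other array the adjusted p was 0.0588 to 0.143: it was lost without control replicate 2 or 3 and without each LPA or LPA+IFNt array. Differences from control were 0.23 with LPA (adjusted p = 0.85) and -0.28 with LPA+IFNt (adjusted p = 0.431), neither past the threshold in limma, nor with the block (0.465 and 0.192). The stromal and smooth muscle marker levels given with PTGS2 moved alongside this difference as well, and their part in it was not tested.

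Neither prostaglandin E synthase passed in any comparison. PTGES, the inducible microsomal synthase that works with PTGS2, read 6.60, 6.36 and 6.42 in control pools 1, 2 and 3, 6.65, 6.39 and 6.76 with LPA, and 6.38, 6.42 and 6.50 with LPA+IFNt. The groups overlapped. Its differences were 0.14 with LPA (95% confidence interval -0.10 to 0.37), -0.03 with LPA+IFNt (-0.26 to 0.21) and -0.16 between them (-0.40 to 0.07), with limma's adjusted p of 0.52 or more. With LPA it was higher in 3 of 3 pairs, by 0.05, 0.02 and 0.34, a count that 13% of all probe sets reached.

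PTGES3 encodes cytosolic prostaglandin E synthase, also known as the HSP90 co-chaperone p23. It read 14.39 to 14.64 over the 9 arrays, with group means of 14.56, 14.50 and 14.58. The highest value lay 1.03 below the highest on any array (15.66). The confidence intervals of its 3 differences spanned -0.21 to 0.23. Among 20 measured genes of HSP90 and its co-chaperones, AHSA1, an activator of the HSP90 ATPase, rose with LPA (0.71, SE 0.06, adjusted p = 0.0117), and the call was lost without control replicate 2 or LPA replicate 1 (highest adjusted p = 0.0698). It was lower in LPA+IFNt than in LPA (-0.44, adjusted p = 0.00349), and CDC37, the kinase-specific co-chaperone, was higher there (0.35, adjusted p = 0.0396, or 0.0648 with the block). CDC37 lost its call without 7 of the 9 arrays, all but LPA replicate 2 and LPA+IFNt replicate 2 (highest adjusted p = 0.121). AHSA1 was also higher in LPA+IFNt than in control (0.27, adjusted p = 0.0344), a call lost without 6 of the 9 arrays: control replicates 2 and 3, LPA replicate 1 and each LPA+IFNt array (highest adjusted p = 0.129). With spike-in centring all 3 calls of AHSA1 were lost (adjusted p = 0.282, 0.781 and 0.868), and with only the 2 groups compared its call with LPA was lost too (0.136).

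The aldo-keto reductases reduce many carbonyl compounds. AKR1B1, aldose reductase, has been assigned the prostaglandin F synthase activity of bovine endometrium. It read 12.24, 12.34 and 12.26 in control pools 1, 2 and 3, 12.09, 12.29 and 11.87 with LPA, and 12.24, 12.09 and 12.04 with LPA+IFNt. All 3 LPA+IFNt arrays lay below the control arrays, by 0.0012 in the pair of replicate 1, and 12.8% of all probe sets had groups apart in that direction. The difference was -0.15 (SE 0.10, adjusted p = 0.502). With LPA it was -0.20 (SE 0.10, 95% confidence interval -0.44 to 0.04, adjusted p = 0.703), with 3 of 3 pairs lower, a count reached by 14.2% of all probe sets. None passed in limma with the block either (adjusted p of 0.355 or more).

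AKR1C4 has relatives with nearly the same sequence, and its 6 probe sets rest on 5 different transcript accessions, so which family member each reads is uncertain. The RefSeq annotation of ARS-UCD2.0 places AKR1C3 and AKR1C4 next to each other with 1 other locus, not protein-coding, between them. AKR1C enzymes reduce steroids and prostaglandins, and a bovine lung member was an early prostaglandin F synthase. The brighter 2 probe sets disagreed. Probe set b read 5.94, 5.98 and 5.87 in control pools 1, 2 and 3, 6.04, 5.67 and 5.77 with LPA, and 5.41, 5.18 and 5.63 with LPA+IFNt. Its LPA+IFNt arrays lay below all others. Groups lay apart in that direction for 12.8% of all probe sets against control and for 11.3% against LPA. In both comparisons 3 of 3 pairs were lower, as for 20.9% of all probe sets against control and 20.5% against LPA. The difference was -0.52 against control (SE 0.13, 95% confidence interval -0.82 to -0.22), 1.44-fold lower, and -0.42 against LPA (SE 0.13). Neither passed in limma (adjusted p = 0.0661 and 0.121, or 0.0631 and 0.11 with the block). The first passed without LPA+IFNt replicate 3 (-0.63, adjusted p = 0.0416), and with probe sets below the trp level left out (adjusted p = 0.0371).

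Probe set a, the brightest of AKR1C4, had the other pattern. It read 6.26, 6.53 and 6.28 in control pools 1, 2 and 3, 5.72, 6.30 and 5.81 with LPA, and 6.50, 6.59 and 6.10 with LPA+IFNt. LPA pools were the lowest of each numbered set. Of all probe sets, 14.2% were lower with LPA than in control in 3 of 3 pairs. In LPA+IFNt against LPA 36.1% were higher in 3 of 3. Differences were -0.42 with LPA (SE 0.18, adjusted p = 0.614, or 0.218 with the block), 0.04 with LPA+IFNt (adjusted p = 0.913) and 0.45 in LPA+IFNt against LPA (SE 0.18, adjusted p = 0.249, or 0.0672 with the block). None passed by limma. In LPA+IFNt against LPA probe sets b and a thus stood at -0.42 and 0.45. Probe set c of AKR1C4 read 3.13 to 3.43, followed the trp mean with r = 0.962, and differed by no more than 0.07 between groups.

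HPGD, the dehydrogenase that starts the breakdown of prostaglandins E and F, spread most among the members. Its leading probe set read 4.71, 5.10 and 4.82 in control pools 1, 2 and 3, 4.83, 5.20 and 4.04 with LPA, and 4.83, 5.43 and 4.84 with LPA+IFNt. LPA pool 3 was the lowest array, and pool 2 the highest in each group. Differences of -0.19, 0.16 and 0.35 in the 3 comparisons had SE of 0.30 and limma's adjusted p of 0.629 or more. The confidence interval in LPA+IFNt against LPA ran from -0.36 to 1.05 without the block and from -0.13 to 0.83 with it. Only the first leaves room for a difference of about a doubling.

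**Figure D4:**
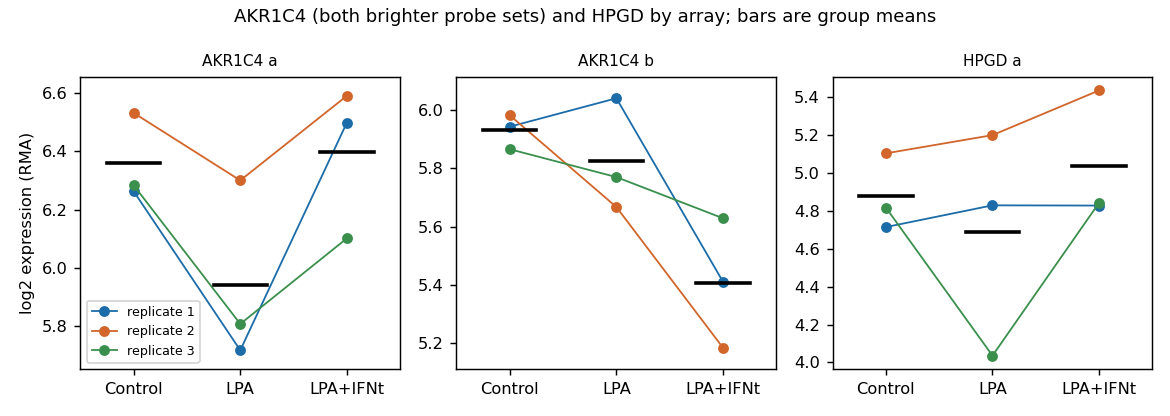
Log2 expression (vertical axes) of both brighter AKR1C4 probe sets and of HPGD in Control, LPA and LPA+IFNt, with 1 point per array, lines joining pools of the same replicate number and black bars at group means. AKR1C4 a dips at LPA, AKR1C4 b is lowest at LPA+IFNt, and 1 LPA array of HPGD stands at 4.04.

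**Figure D5:**
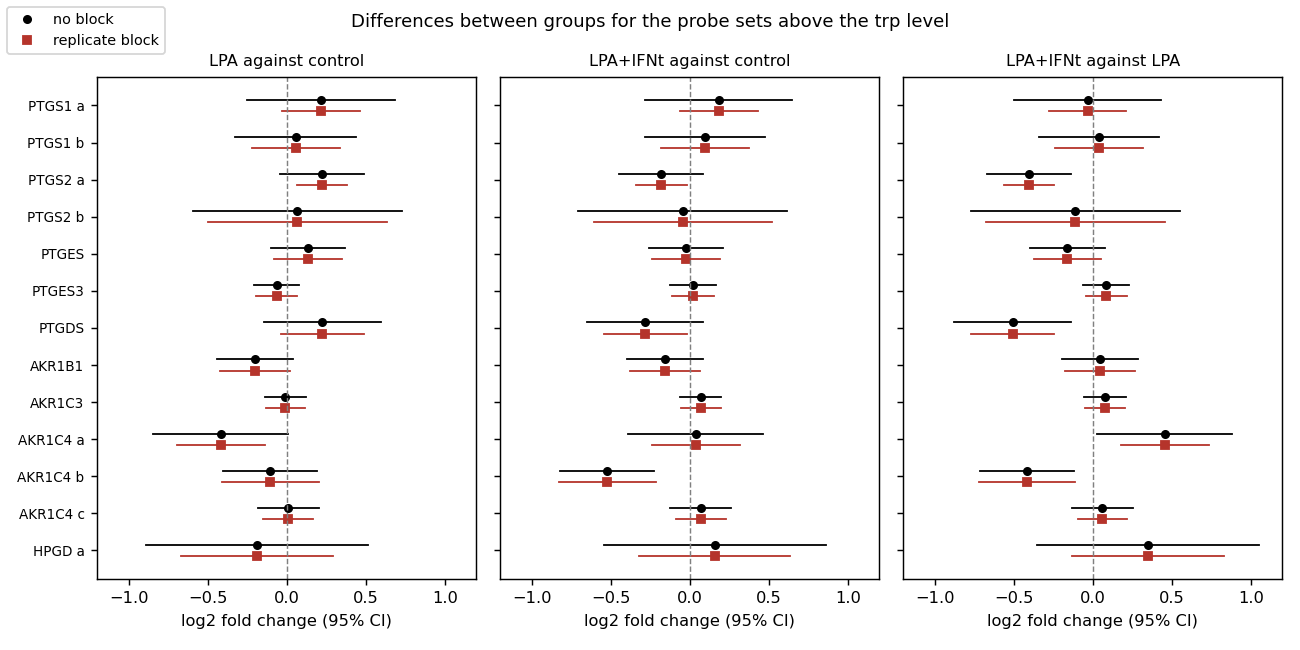
Log2 fold changes (horizontal axes) with 95% confidence intervals for the 13 member probe sets above the trp level in the 3 comparisons, without (black circles) and with (red squares) the replicate number as a block. PTGS2 at -0.40, PTGDS at -0.51 and AKR1C4 b at -0.42 lie below 0 in LPA+IFNt against LPA, and AKR1C4 a at 0.45 lies above it, with unblocked intervals that leave out 0.

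Other genes of the pathway were read from lists, by the brightest probe set of each gene. No gene of 6 lists (other prostanoid enzymes, arachidonic acid release, arachidonate activation, other eicosanoids, prostaglandin receptors and transport, inducers of PTGS2) passed with LPA against control, beside 8 higher (0.0874%) and 3 lower (0.0328%) of all 9155 named genes. Beside the counts that follow for LPA+IFNt, 3.43% of all named genes were higher and 3.13% lower against control (4.43% and 7.14% with the block), and 3.75% were higher and 4.16% lower against LPA (4.97% and 7.66% with the block). Outside the interferon response genes, 26 calls of the named list genes are given here. Centring on the spike-in controls ended 19 of the 26, all but those of PLA2G7, ZFP36 and EPHX2 in both comparisons and of PLA2G16 against LPA. A call lost in this way does not mean a smaller difference. The centring moved every difference with LPA+IFNt up, so higher genes stood further from 0 and lower ones nearer. Against LPA, ACSL5 went from 0.31 to 0.44 and CEBPB from -0.69 to -0.56. With only the 2 groups compared 9 were lost, those of MBOAT1, ACSL5, CEBPB, JUN, CDC37, PTGR3 against LPA, ALOX12 in both comparisons and AHSA1 with LPA. Averaging the probe sets of a gene ended 3 (PLCB4, EGR1 and JUN), the intensity trend 2 (EGR1 and CDC37) and median centring 1 (AHSA1 against control). The smallest p-values with LPA were those of GSTM3 (-0.40) and AKR1A1 (-0.18), ANXA2 (0.10) and PLCB4 (-0.31), MBOAT1 (-0.34) and LPCAT3 (-0.40), EPHX1 (-0.37) and LTA4H (-0.12), PPARG (-0.21) and PPARA (0.15), and CREB1 (0.29) and OXTR (-0.41), in the order of the lists. Their adjusted p by limma was 0.218 or more. Of 9 other prostanoid enzymes measured, 1 was lower in LPA+IFNt against both other groups. This was PTGR3, a prostaglandin reductase, at -0.43 against control (adjusted p = 0.0408) and -0.51 against LPA (adjusted p = 0.0186). Its first call was lost without 7 of the 9 arrays, all but LPA replicates 1 and 2 (highest adjusted p = 0.143), and its second without LPA+IFNt replicate 1 (0.0546) or with only the 2 groups compared (0.0734). Both were lost with spike-in centring (adjusted p = 0.868 and 0.781). With the block 2 of the 9 were lower in each. The medians of that list were -0.25 and -0.20, beside -0.006 and 0.01 over all named genes.

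Release of arachidonic acid precedes the cyclooxygenases. Of 17 genes measured for it, 3 were higher and 1 lower in LPA+IFNt against control, and 3 higher and 0 lower against LPA. PLA2G7, a secreted phospholipase that cleaves platelet-activating factor, rose from 5.29 to 6.10 (0.81, SE 0.13, adjusted p = 0.00964) and was higher than with LPA by 0.80 (adjusted p = 0.00963). PLA2G16, a phospholipase of adipose and other tissues, was higher by 0.66 than with LPA (adjusted p = 0.0076) and by 0.47 than in control (adjusted p = 0.0349, lost without any 1 of the control or LPA+IFNt arrays, highest 0.105). ANXA1, whose protein restrains phospholipase A2, was higher by 0.25 than with LPA (adjusted p = 0.00802). PLCB4, a phospholipase C, stood at -0.67 against control (adjusted p = 0.0182, lost without control replicate 1 or 3 or any LPA+IFNt array, highest 0.0738). It was 1 of 3 probe sets of that gene. Calls of PLA2G7 in both comparisons and of PLA2G16 and ANXA1 against LPA held without each array in turn, but that of ANXA1 was lost with spike-in centring (adjusted p = 0.781).

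The list for activation and membrane uptake of arachidonate had 16 genes measured. It also holds desaturases, elongases and fatty acid binding proteins, so its counts are not of that step alone. In LPA+IFNt against control 2 were lower, the desaturase FADS2 (-0.55, adjusted p = 0.0216) and the acyl-CoA synthetase ACSL1 (-0.38, adjusted p = 0.022). Against LPA 2 were higher, ACSL5 (0.31, adjusted p = 0.0262) and the acyltransferase MBOAT1 (0.35, adjusted p = 0.0387, or 0.0557 with the block), the latter by 1 of 2 probe sets. The block gave 2 higher and 2 lower against control, and 2 higher and 1 lower against LPA. None of these 4 held without each array: FADS2 was lost without control replicate 1 or 2 or any LPA+IFNt array, ACSL1 without any LPA+IFNt array, ACSL5 without control replicate 2, LPA replicate 2 or 3 or LPA+IFNt replicate 1 or 2, and MBOAT1 without every array but control replicate 1, with highest adjusted p of 0.0769, 0.0781, 0.0824 and 0.109.

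Among 16 genes of leukotriene and other eicosanoid metabolism, EPHX2, the soluble epoxide hydrolase that acts on epoxides of arachidonate, read 3.64 on average with LPA+IFNt, 2.27 in control and 2.32 with LPA by 1 of 2 probe sets, and was called higher than both (adjusted p = 0.000223 and 0.000272). Its control and LPA levels lay under the trp level, which it passed through the LPA+IFNt arrays alone, so no size of the difference is given. ALOX12, a lipoxygenase, was lower against control (-0.62, adjusted p = 0.0244) and LPA (-0.59, adjusted p = 0.0275), by 1 of 3 probe sets. Its first call was lost without any control array or LPA+IFNt replicate 2 or 3, and its second without control replicate 2, LPA replicate 1 or 3 or LPA+IFNt replicate 2 or 3 (highest adjusted p = 0.0933 and 0.103). With the block 2 of the 16 were lower against control. Of 11 prostaglandin receptor, nuclear receptor and transporter genes, 0 passed in any comparison in limma without the block. PTGER4, a receptor of prostaglandin E, stood at 0.65 in LPA+IFNt against control (SE 0.17, adjusted p = 0.0771, or 0.03 with the block) and at 0.50 against LPA (adjusted p = 0.156). SLCO4A1, an organic anion transporter, stood at -0.35 (adjusted p = 0.284) and -0.31 (adjusted p = 0.339).

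Among 27 measured genes known to induce PTGS2 or to control its mRNA, ZFP36, whose protein binds AU-rich mRNAs and speeds their decay, rose from 7.82 in control to 8.58 with LPA+IFNt (0.76, SE 0.08, adjusted p = 0.00189) and was higher by 0.66 than with LPA (adjusted p = 0.00369). The cytokine gene IL6 was higher than in control by 0.43 (adjusted p = 0.0038). Calls of ZFP36 and IL6 held without each array in turn, but that of IL6 was lost with spike-in centring (adjusted p = 0.399). The transcription factor gene CEBPB stood at -0.69 against LPA (adjusted p = 0.0381), by 1 of 2 probe sets. Its call was lost without 7 of the 9 arrays, all but control replicate 1 and LPA replicate 2 (highest 0.126). JUN was higher than with LPA by 0.42 (adjusted p = 0.0218, lost without LPA or LPA+IFNt replicate 1 or 3, highest 0.087), by 2 of 5 probe sets. EGR1 stood at -0.22 against control (adjusted p = 0.0174, lost without control or LPA+IFNt replicate 1 or 2, highest 0.078), by 1 of 2. In all, 2 of the 27 were higher and 1 lower against control, or 3 and 2 with the block, and 3 and 3 against LPA.

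The genes whose leading probe sets were most like PTGS2 over the 9 arrays were ARHGEF28 (Pearson r = 0.992), C6H4orf3 (0.99) and TSPAN1 (0.987), among 3037 genes above the highest trp value that ranged over at least 0.5. For PTGDS they were SURF4 (0.985), RXRA (0.949) and CEBPB (0.942). These r describe 9 arrays that share groups and numbered pools, and no test was made of them.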

How the data were processed

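RNA of 9 pooled samples was hybridised to 9 Affymetrix bovine arrays. Per the submitters' processing notes the authors used RMA in Partek. Their versions are not known here. The deposited values are taken as log2 from their range. RMA corrects background, makes array distributions alike by quantile normalization and summarises probes, so a change of most transcripts at once would be hidden. The number of arrays limits the precision.

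Symbols came from the array's annotation, of which RefSeq (ARS-UCD2.0) changed 0. Of 24128 probe sets, 112 Affymetrix controls were left out. Group means were compared by limma 3.58.1 under R 4.3.3 (lmFit, eBayes, two-sided, all 9 arrays, no covariate, no filter), with Benjamini-Hochberg adjustment over 24016 probe sets and a threshold of 0.05, and the code was tested on simulated data. The alternatives were a replicate block, each array left out, a dim filter, an intensity trend, 2 other centrings, averaged probe sets and fits of 2 groups. Leaving out arrays within the blocked fit, the test of the replicate number and the differences of pairs were chosen after seeing the data.

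Replicate numbers in the titles were checked for pairing. Deviations from group means correlated by 0.19 to 0.491 in all 9 pairs of the same number, and by -0.468 to 0.141 in the others. Same-numbered arrays thus deviated together, and the numbers were treated as pairs. The labels do not say what these arrays share, such as cows or a processing run.

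A gene was led by its brightest probe set. All members are named. From each list come up to 3 called genes with the largest change per comparison, or values of the 2 smallest p where none passed. Likeness took 3 genes for PTGS2 and for the next member by F test. Members and lists were chosen with earlier results of these data known.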

Additional observations from a re-analysis of the deposited data

How the results depend on the processing

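The count of member probe sets called was 0 in each comparison and in the F test over the 3 groups. It stayed 0 in LPA against control under every alternative. In LPA+IFNt against control it was 1 with the filter on dim probe sets and with arrays centred on the median (AKR1C4 in both), and 0 to 1 with arrays left out. In LPA+IFNt against LPA it was 2 with the replicate block, 1 with the intensity trend (PTGS2), 1 with only the 2 groups compared (PTGDS), and 0 to 1 with arrays left out. In the F test it was 1 with the replicate block, 1 with median centring, and 0 to 1 with arrays left out. The replicate block changed no other call among the members. Of 612 values of member differences under these alternatives, 39 changed sign, all of them uncalled, and 0 called ones reversed. Many of the 612 could not change. The block, the dim filter, the intensity trend and the fits of 2 groups leave a difference of group means as it is. So does leaving out an array of the group not compared. No member was called at first, so the lack of reversed calls says little about how stable the signs are.

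Over all probe sets, LPA against control gave 17 calls (11 with the replicate block, 37 with the dim filter, 50 with the intensity trend, 107 with spike-in centring, 28 with averaged probe sets, 1 with only the 2 groups, and 0 to 169 with arrays left out, 0 without control replicate 2 or LPA replicate 1 and 169 without LPA replicate 2). LPA+IFNt against control gave 1282 (2085 with the replicate block, 578 with spike-in centring, 791 to 1352 with arrays left out). LPA+IFNt against LPA gave 1571 (679 with spike-in centring, 1004 with only the 2 groups, 954 to 2204 with arrays left out). The F test gave 1439 (2276 with the replicate block, 787 with spike-in centring, 911 to 1997 with arrays left out). The cause of these movements was not tested. Signal near the trp level limits what PTGIS, AKR1C3 and the dim probe sets can show.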

Other observations

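The balance between prostaglandin E and F synthases was read as the within-array difference of PTGES and AKR1B1 log2 values, a measure chosen after the data were seen. It was higher with LPA than in control by 0.34, with 1 of the 3 LPA arrays inside the control range, and the exact two-sided permutation test gave p = 0.3 (adjusted p = 0.5 over 3 comparisons). LPA+IFNt differed by 0.13 from control and by -0.21 from LPA (p = 0.5 each in the exact permutation test). That test takes no account of the pairing, and with 3 arrays against 3 the smallest p it allows is 0.1. In same-numbered pairs the measure was higher with LPA in 3 of 3 (by 0.21, 0.07 and 0.73), and the exact test over the sign changes of the pairs gave p = 0.25, the smallest it allows. Neither test could pass a threshold of 0.05, so they say nothing about whether the balance differed.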
